A study of Mus musculus with 37 samples.

Results

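The secreted Wnt antagonists described here are 10 genes of the 27998 gene rows in each count table: Sost, Dkk1, Dkk2, Dkk3, Sfrp1, Sfrp2, Sfrp4, Sfrp5, Frzb and Wif1. They were chosen by name, and all 10 were found through their Ensembl identifiers. The study infected mouse embryonic fibroblasts of the outbred ICR strain with retroviruses carrying one pool of 48 factors, a set drawn up for conversion toward heart cells, and profiled single cells on day 7 by Drop-seq, a droplet method that tags the messenger RNA of each cell with a cell barcode. The labels list 37 technical replicates of 1 biological replicate and no culture without the pool. The comparison groups were therefore made from the cells themselves: cells with at least 1 count of Mesp1, Foxn4, Gata6, Hand2 or Myod1, each set against as many cells of the same library without a count of that factor, matched on total counts. Both groups of each comparison came from the same libraries, strain and day, had met the same virus pool, and could carry any of the other factors. A count of a factor may come from the retrovirus or from the cell's own gene, which the count tables do not separate, and a cell without a count may still carry the factor.

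Wnt proteins are secreted signals that bring together a Frizzled receptor and the coreceptor Lrp5 or Lrp6 at the cell surface, which leads to stabilised beta-catenin and transcription of target genes. Secreted antagonists block this step outside the cell. Sclerostin, the product of Sost, and the Dickkopf proteins Dkk1 and Dkk2 bind the Lrp5 and Lrp6 coreceptors, while the frizzled-related proteins Sfrp1, Sfrp2, Sfrp4, Sfrp5 and Frzb, and Wnt inhibitory factor Wif1, bind Wnt ligands. Dkk3 is the divergent Dickkopf relative, whose action on Wnt signalling is less settled. Wnt signalling is known to promote mesoderm formation early in heart development and to hold back cardiomyocyte differentiation at a later step, and Wnt antagonists are secreted by tissues next to the forming heart.

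The promoters of 4 members are printed because the results below turn on these genes: Sost and Wif1, which were higher in cells with Myod1, and Sfrp2 and Dkk2, which moved in opposite directions with different factors. Each run is 300 bases, 250 before and 50 from the annotated start on, read 5′ to 3′ on the gene's strand from the RefSeq table of build GRCm38.p6, where 7 of the 10 members were matched (Dkk3, Sfrp1 and Sfrp4 were not). Capitals mark E-boxes, the CANNTG element bound by helix-loop-helix transcription factors, the family of Mesp1, Hand2 and Myod1.
Sost, chr11:101966966-101967265, minus strand: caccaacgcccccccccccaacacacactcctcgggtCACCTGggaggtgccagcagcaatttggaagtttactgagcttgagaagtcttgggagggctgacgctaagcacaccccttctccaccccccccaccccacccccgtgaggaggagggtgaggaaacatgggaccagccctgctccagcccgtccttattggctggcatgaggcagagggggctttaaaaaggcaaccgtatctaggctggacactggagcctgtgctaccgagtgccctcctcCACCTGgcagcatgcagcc
Wif1, chr10:121033754-121034053, plus strand: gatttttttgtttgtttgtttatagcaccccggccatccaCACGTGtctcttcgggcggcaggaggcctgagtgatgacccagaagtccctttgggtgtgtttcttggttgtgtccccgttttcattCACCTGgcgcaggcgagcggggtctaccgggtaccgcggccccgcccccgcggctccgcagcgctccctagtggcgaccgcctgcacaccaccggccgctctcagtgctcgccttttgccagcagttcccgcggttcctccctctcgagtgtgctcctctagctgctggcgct
Sfrp2, chr3:83766071-83766370, plus strand: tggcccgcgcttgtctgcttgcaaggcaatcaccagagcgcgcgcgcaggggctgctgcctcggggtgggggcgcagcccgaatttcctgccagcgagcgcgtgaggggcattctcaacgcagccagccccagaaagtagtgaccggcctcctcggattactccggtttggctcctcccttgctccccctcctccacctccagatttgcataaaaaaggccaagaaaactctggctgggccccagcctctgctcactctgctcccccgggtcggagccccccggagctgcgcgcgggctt
Dkk2, chr3:132085042-132085341, plus strand: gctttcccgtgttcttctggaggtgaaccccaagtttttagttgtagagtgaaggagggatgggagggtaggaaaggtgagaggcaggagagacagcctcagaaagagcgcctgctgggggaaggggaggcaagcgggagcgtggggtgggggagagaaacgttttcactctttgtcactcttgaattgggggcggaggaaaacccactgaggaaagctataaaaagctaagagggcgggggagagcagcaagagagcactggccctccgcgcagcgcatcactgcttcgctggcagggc
The Sost window held 2 E-boxes, both CACCTG, and the Wif1 window held 2, CACGTG and CACCTG. No CANNTG stood in the Sfrp2 or Dkk2 window. An E-box is common, since 72.3% of the 32851 promoter windows in the table held at least 1. On either strand, the letters GATA stood in 57.9% of windows and GACGC, the core bound by forkhead factors of the FoxN type, in 27.2%. The Sost window held 1 match of each, on the GATA side as TATC, none of which overlapped an E-box, and the Wif1, Sfrp2 and Dkk2 windows held neither. These matches describe letters in a window and are not binding sites.

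Technical replicates 4 and 6 shared 59 cell barcodes, where the next pair shared 4, so they were merged and counted as 1 of 36 libraries, and 89 barcodes found in more than 1 library and 78 that lay 1 base from another were removed. The remaining 8563 cells held 119796414 counts, with a median of 8558 counts and 3568 detected genes per cell. Libraries held 70 to 548 cells and 637680 to 7921171 counts, and by their names fell into the series JD (15 libraries), PZ47-PZ48 (15) and PZ58 (6). They also fell into 10 libraries with a level of at least 100 CPM (counts scaled to a common library total) of the ribosomal gene Rps27a and 26 libraries below it. These are called the high and low read class. Every PZ58 library is in the high class and every PZ47-PZ48 library in the low class, while JD libraries are in both. Splits by series and by read class therefore share libraries and are not separate checks. Of the fibroblast markers, Col1a1 was detected in 99.6% of cells, Col3a1 in 95.6%, Prrx1 in 85.1%, Lum in 26.6% and Pdgfra in 24.7%. These shares include the cells of other types described below, so a count of such a marker does not by itself mark a fibroblast. None of the 5 factors was detected in 5442 cells, 63.6% of all.

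Sost lies at chr11:101962458-101967015 on the minus strand (GENCODE annotation of GRCm38, as for all positions of genes below) and encodes sclerostin, a bone-secreted inhibitor best known from osteocytes. Over the 36 libraries its level ran from 0 to 62.6 CPM with a median of 2.32 CPM, a mean of 6.20 ± 11.7 CPM (SD, n = 36 libraries), and 2 libraries stood at 0. The gene was rare among cells but strong in a few: 104 cells, or 1.21% (exact binomial 95% interval 0.993% to 1.47%), held all 864 counts. A single cell of replicate 20 held 272 of them, 31.5%, and without that cell the highest library stood at 33.7 CPM. Intervals and limits of this kind cover counting error only.

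Among the Dickkopf members, Dkk2 (chr3:132085292-132180304, plus strand) was present in every library, from 25.9 to 144 CPM with a median of 64.2 CPM. It was detected in 1712 cells, 20.0%. Dkk1 (chr19:30545863-30549665, minus strand), a strong inhibitor known from head and limb development, was nearly silent, with 50 counts in 35 cells, 0.409%, and 13 libraries at 0. Dkk3 (chr7:112116017-112159057, minus strand) ran from 67.4 to 181 CPM with a median of 123 CPM and was detected in 49.1% of cells.

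Among the members that bind Wnt ligands, Sfrp1 (chr8:23411502-23449632, plus strand) ran from 103.5 to 318 CPM with a median of 187 CPM and was detected in 49.2% of cells. Sfrp2 (chr3:83766321-83774316, plus strand) ran from 4.99 to 309 CPM with a median of 15.1 CPM. The top value came from replicate 11, where 1 cell held 490 of the gene's 2530 counts, and without that cell the highest library stood at 89.1 CPM. Sfrp2 overlaps the antisense gene Gm26771 (chr3:83773853-83789956, minus strand), and 427 of the 437 cells with a count of Gm26771 also had one of Sfrp2. Whether reads were counted by strand is not given in the sources used here, so reads of these genes cannot be told apart. Sfrp4 (chr13:19623104-19632994, plus strand), known from bone and from the endometrium, ran from 4.02 to 47.6 CPM with a median of 15.2 CPM.

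The remaining ligand binders were found in fewer cells. Frzb (chr2:80411970-80447625, minus strand), first known from cartilage, ran from 1.47 to 13.0 CPM with a median of 5.24 CPM in 449 detected cells. Wif1 (chr10:121033960-121100650, plus strand) ran from 0 to 6.03 CPM with a median of 1.21 CPM, with 195 counts in 114 cells. Sfrp5 (chr19:42197971-42202252, minus strand) had 3 counts in 3 cells, and 33 of the 36 libraries stood at 0. Levels are given per gene and are not ranked against each other.

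**Figure D1:**
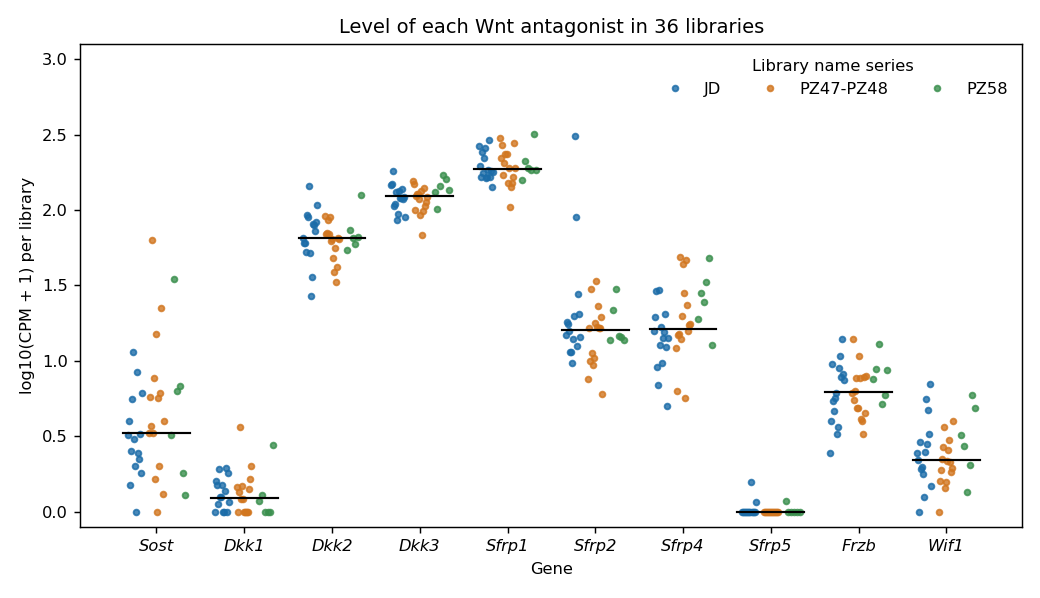
Level of each secreted Wnt antagonist in each of the 36 libraries, on a log10(CPM + 1) axis, with 1 point per library coloured by library series and the median as a bar. Sfrp1, Dkk3, Dkk2, Sfrp2, Sfrp4 and Frzb lie above 0 in every library. The Sost and Sfrp2 points spread more widely than those of the other members, with their highest libraries at 62.6 CPM and 309 CPM.

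Where the members were found among the cells was described by clustering the 8563 cells with the members and the 5 factors left out of the clustered genes. Of 23 clusters, 6 matched a marker list: clusters 8 and 20 were smooth muscle-like, cluster 14 mesothelium and epicardium-like, cluster 17 skeletal muscle-like, cluster 19 nerve and glia-like and cluster 23 macrophage-like. The others have no name and are given by their leading genes. Sost was concentrated in 1 unnamed cluster: cluster 13, of 216 cells led by Chodl, Col28a1 and F13a1 with the muscle gene Myh8 among its leading genes, held 71.2% of all Sost counts at 213 CPM. The cell of replicate 20 with 272 counts lies in this cluster, which stood at 121 CPM without it. The 25 Sost-positive cells there made up 11.6% of the cluster, and came from 14 libraries. Sost stood at 41.5 CPM in the skeletal muscle-like cluster 17, where 12.2% of 147 cells had a count, and at 23.5 CPM in cluster 18, led by Krt8 and Itih4 (14.6 CPM without its richest cell).

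Wif1 was highest in the skeletal muscle-like cluster, at 25.4 CPM in 20.4% of its cells, and next in cluster 13 at 3.46 CPM. Sfrp1 had the reverse place: it was at 715 CPM in cluster 15, led by the simple-epithelium keratins Krt18 and Krt8, at 485 CPM in cluster 18, and lowest in skeletal muscle-like cells at 30.0 CPM. Dkk3 was also lowest in skeletal muscle-like cells, at 19.8 CPM, and highest in cluster 11, led by Tac2 and Cdkn1c, at 342 CPM. Dkk2 was at 214 CPM in cluster 2, with Cxcl14 and Ccn3 among its leading genes, and at 193 CPM in cluster 9, led by the cell division genes Kif23 and Cdc20, against 6.58 CPM in mesothelium and epicardium-like cells.

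Sfrp2 was highest in those mesothelium and epicardium-like cells, at 193 CPM, followed by cluster 1, led by Vip and Igsf10, at 63.2 CPM. A single cell held 190 of the 440 counts in the first of these clusters and another 490 of the 705 in cluster 1, and without them the levels were 114 and 19.3 CPM. Gm26771 was not left out of the clustered genes and was among the leading genes of cluster 1. Sfrp4 stood at 79.8 CPM in cluster 21, led by Ism1 and Eln, and at 61.5 CPM in cluster 1, or at 51.4 and 55.1 CPM without the richest cell of each. Frzb stood at 15.3 CPM in cluster 7, led by Prl8a9 and Cyp11a1, and at 0 in clusters 17, 18 and 23. The macrophage-like cells, a type not known as a source of these proteins, give a level to set low shares against: among the 27 such cells (median 6723 counts), 33.3% had a count of Sfrp1, 22.2% of Dkk3, 11.1% of Dkk2, 7.41% of Sfrp2 and 3.70% of Sfrp4. Single cells held 19 of the 27 counts of Dkk2 there, 15 of the 26 of Dkk3 and 10 of the 11 of Sfrp2. Whether free RNA or doublets gave these counts was not tested. No macrophage-like cell had a count of Sost, Wif1, Frzb, Dkk1 or Sfrp5, and 0 of 27 cells allows a share of up to 11.1%.

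**Figure D2:**
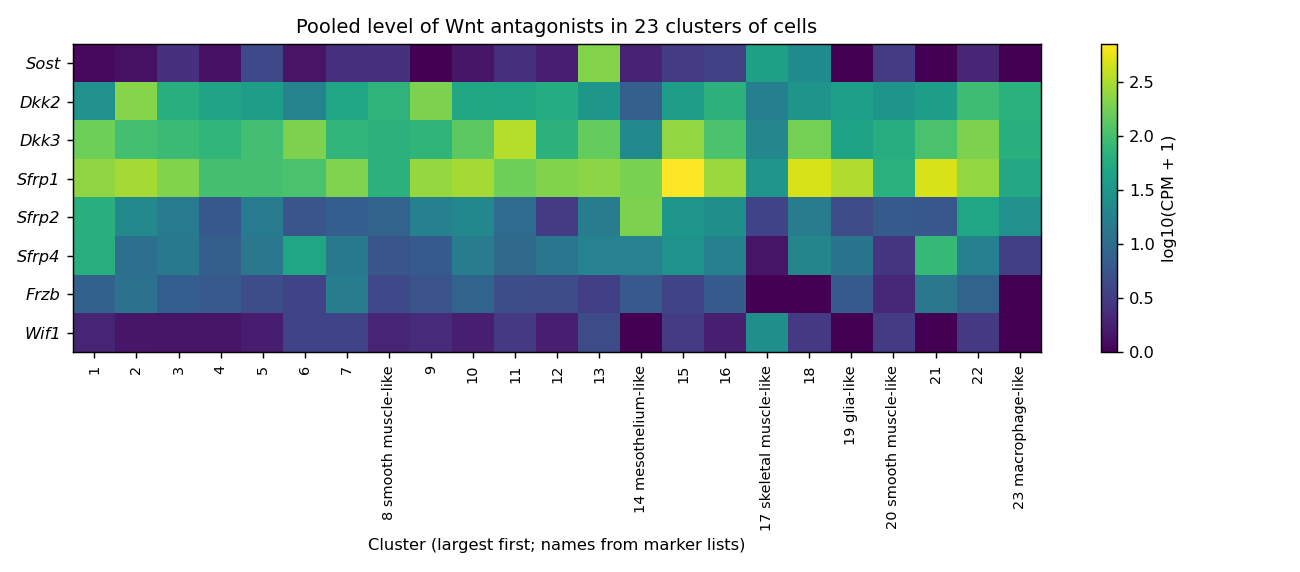
Pooled level (log10(CPM + 1), colour) of 8 secreted Wnt antagonists in the 23 cell clusters, with members down the page and clusters across. Sost is brightest in cluster 13 (213 CPM), Wif1 in the skeletal muscle-like cluster 17 (25.4 CPM), Sfrp1 in cluster 15 (715 CPM) and Sfrp2 in the mesothelium and epicardium-like cluster 14 (193 CPM).

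Members shared little of their variation from cell to cell. Pearson's r of log counts per 10000, with each library centred, lay between -0.03 and 0.09 for every pair of the 8 members detected in at least 100 cells, over 8563 cells that share libraries and depth. Against the genes detected in 1% or more of cells, Sost was most like Myh8 (r = 0.30), Kcnn3 (0.27) and Shisa2 (0.25), and Wif1 most like Tcap (0.24), Rxrg (0.23) and Mb (0.22). Sfrp2 was most like its antisense neighbour Gm26771 (0.90), then Dcn (0.15) and the mesothelial marker Upk3b (0.14). Sfrp1 was most like Igf1 (0.26), Ptn (0.26) and Igfbp3 (0.25), Dkk2 most like Ctla2a (0.23), Ptn (0.21) and Crabp1 (0.20), and Dkk3 most like Aebp1 (0.22), Mmp2 (0.20) and Tgfbi (0.18). Among the genes most like Sfrp4 were Epdr1 (0.21) and Col3a1 (0.15), while no gene passed 0.08 for Frzb (Tm4sf1 0.08, Gsto1 0.07, C1qtnf7 0.07). These coefficients are descriptions of sparse counts.

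In the 5 comparisons below, counts were summed per library over the cells with a factor and over their matched cells, and fitted with edgeR's quasi-likelihood test over all genes with 20 or more counts, with the library as a block. Calls have a Benjamini-Hochberg adjusted p under 0.05 over all genes tested. Since the libraries are technical replicates of 1 culture, the p-values measure only the spread between libraries. Cells with several factors enter several comparisons, so the 5 comparisons share cells and their values are given side by side.

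Mesp1, a helix-loop-helix transcription factor of early mesoderm that marks the forerunners of heart cells, was detected in 503 cells of 36 libraries. Cells with Mesp1 had higher Sost and Dkk3 and lower Sfrp2 and Dkk2 than matched cells without it. Of the 10 members, 8 could be tested, and 2 were called higher and 2 lower, where 8.09% of 14337 genes were called in either direction (4.7% higher, 3.39% lower). The members' median log2 change was -0.18, against 0.0031 over all genes tested.

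Sost ran from 0 to 458 CPM with a median of 5.84 CPM over libraries in cells with Mesp1, and from 0 to 79.8 CPM with a median of 0 in cells without it. The ranges overlapped, but 13 libraries stood at 0 in cells with Mesp1 and 30 in cells without, and the level was higher in 23 libraries and lower in 3. Means were 43.5 ± 105 CPM in cells with Mesp1 and 3.16 ± 13.5 CPM in cells without it (SD, n = 36), a log2 change of 4.10 ± 0.55 (SE), edgeR adjusted p = 1.6e-06. A count was found in 8.55% of cells with Mesp1 and 1.19% of cells without. After thinning each cell to 5000 counts, the shares were 5.88% and 0.452% of 442 cells each. Without the single richest cell the change was 3.67, and without its library, replicate 20, it was 3.52, both called. It was 2.79 within JD libraries (adjusted p = 0.035), 7.28 within PZ47-PZ48 libraries (adjusted p = 3.6e-09), 2.42 within PZ58 libraries (adjusted p = 0.72), and 3.06 in the high and 4.73 in the low read class (adjusted p = 0.16 and 1.7e-06). DESeq2 gave 2.84 with an adjusted p of 0.12, and among cells with none of the other 4 factors edgeR gave 2.22 with an adjusted p of 0.065. The change was 6.79 with 2 or more counts of Mesp1 and 6.15 without clusters 14, 17, 19 and 23 (the named ones other than smooth muscle-like), both called.

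Dkk3 ran from 17.5 to 679 CPM with a median of 144 CPM in cells with Mesp1, and from 14.7 to 393 CPM with a median of 87.1 CPM in cells without it. It was higher in 25 of 36 libraries, and the ranges overlapped widely. Its log2 change was 0.82 ± 0.19 (edgeR adjusted p = 0.002), with 1.29 within JD, 0.50 within PZ47-PZ48 and 0.51 within PZ58 libraries, called in JD alone. Dkk2 moved the other way. It ran from 0 to 252 CPM with a median of 16.9 CPM in cells with Mesp1, and from 0 to 484 CPM with a median of 46.7 CPM in cells without it, lower in 26 libraries and higher in 9. Its log2 change was -0.89 ± 0.25 (edgeR adjusted p = 0.017), with -0.90 within JD, -0.36 within PZ47-PZ48 and -1.99 within PZ58 libraries, none of them called. Among cells with none of the other 4 factors the changes of Dkk3 and Dkk2 were 0.45 and -0.32, not called. In the high and low read class they were 0.84 and 0.82 for Dkk3 and -1.28 and -0.75 for Dkk2, both called in the low class only.

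Sfrp2 ran from 0 to 33.0 CPM with a median of 3.97 CPM in cells with Mesp1, and from 0 to 3090 CPM with a median of 9.35 CPM in cells without it. It was lower in 22 libraries and higher in 9, and the top value in cells without Mesp1 was the single rich cell of replicate 11. The log2 change was -2.69 ± 0.46 (edgeR adjusted p = 6.6e-05), and -2.15 without that cell (adjusted p = 0.00039), -1.25 without the deepest 5% of cells (adjusted p = 0.035) and -4.19 without the library as a block (adjusted p = 1.5e-06). It was -3.55 within JD (adjusted p = 0.0041), -1.11 within PZ47-PZ48 (adjusted p = 0.34) and -2.67 within PZ58 libraries (adjusted p = 0.45), and -1.97 in the high and -2.92 in the low read class (called in the low class only). Gm26771 changed by -2.59 ± 0.51 (edgeR adjusted p = 0.00048). Among cells with none of the other 4 factors the Sfrp2 change was -1.34, with an adjusted p of 0.31. The members that did not pass were Sfrp1 (-0.11 ± 0.19), Sfrp4 (-0.26 ± 0.50), Frzb (-0.84 ± 0.44) and Wif1 (-0.10 ± 0.68), and Dkk1 had 6 counts in cells with Mesp1 and 3 in cells without.

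The kinds of cell differed between the groups as well. Cluster 13, which held most Sost counts, had 90 cells with Mesp1 and 6 matched cells without it, and cluster 11, highest in Dkk3, had 54 and 16. Clusters 2 and 9, highest in Dkk2, had 33 and 11 cells with Mesp1, against 53 and 29 matched cells. Within cluster 13, over all its cells, Sost stood at 369 CPM in the 90 cells with Mesp1 (197 CPM without the cell of 272 counts, which carried Mesp1, Foxn4, Gata6 and Myod1) and at 36.9 CPM in the 126 without. The 15 cardiomyocyte markers summed to a median of 1009 CPM per library in cells with Mesp1 (range 67.3 to 5831) and 240 CPM in cells without it (range 50.3 to 3122). Of these, 3 of 13 tested were called higher and none stood at 0. In the skeletal muscle-like cluster 17, 14 of the 15 were raised over all other cells. With Myod1 the medians were 6835 and 178 CPM, and 11 of 14 tested were called higher. With Foxn4 they were 1199 and 327 CPM, with 0 of 15 called. Of 15 tested, 6 were called higher with Gata6, and 3 lower and 0 higher with Hand2. The part of these clusters and markers in the members' changes was not tested.

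Of the pathway genes around the antagonists, 3 of 10 tested Wnt ligands were called higher and none lower with Mesp1: Wnt5a by 0.56, Wnt16 by 1.46 and Wnt4 by 1.22 on the log2 scale. Wnt16 averaged 35.3 ± 22.2 CPM in cells with Mesp1 and 12.8 ± 14.8 CPM in cells without (SD, n = 36). Among 20 tested receptors and coreceptors, Lrp5 (0.72) and the R-spondin receptor Lgr4 (0.75) were higher and Fzd7 (-0.47) was lower. Among 6 tested agonists and ligand release genes, Rspo1 (1.68) and Porcn (0.86), the enzyme that acylates Wnts, were higher with edgeR, while DESeq2 called 0 of the 6. Of 14 tested target genes, Bmp4 (0.66), Nkd1 (0.96) and Ccn4 (0.28) were higher and Myc (-0.50) lower, while Grem1 (-1.09) was the 1 of 11 tested bone morphogenetic protein (BMP) antagonists called, and was lower (DESeq2 called 2). No gene was called among 5 tested other secreted Wnt inhibitors and 16 tested core genes of the beta-catenin pathway. In these lists edgeR gave an unadjusted p under 0.05 for 3 and 2 genes. DESeq2 also called 0, but gave no adjusted p for 3 of the 5 inhibitors.

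Foxn4, a forkhead factor known from retina and spinal cord and from the atrioventricular canal of zebrafish, was detected in 452 cells of 35 libraries with at least 3 such cells. Cells with Foxn4 had higher Sfrp1, Dkk3 and Sost and lower Dkk2 than matched cells without it. Of the 8 members tested, 3 were called higher and 1 lower, where 7.11% of 14187 genes were called (3.93% higher, 3.18% lower), and the members' median log2 change was 0.44, against 0.0049 over all genes tested.

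Sfrp1 ran from 52.0 to 2007 CPM with a median of 343 CPM in cells with Foxn4, and from 21.7 to 504 CPM with a median of 143 CPM in cells without it. It was higher in 28 of 35 libraries, and the ranges overlapped. Means were 414 ± 364 CPM in cells with Foxn4 and 161 ± 108 CPM in cells without it (SD, n = 35), a log2 change of 1.18 ± 0.20 (edgeR adjusted p = 5.6e-05). The change was 1.02 within JD (adjusted p = 0.12), 1.06 within PZ47-PZ48 (adjusted p = 0.014) and 1.94 within PZ58 libraries (adjusted p = 0.0066), and 1.08 among cells with none of the other 4 factors (adjusted p = 0.027). The JD libraries were the 1 of 17 alternatives in which it was not called.

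Dkk3 ran from 20.0 to 928 CPM with a median of 160 CPM in cells with Foxn4, and from 0 to 354.5 CPM with a median of 87.3 CPM in cells without it, higher in 26 of 35 libraries. Its log2 change was 0.89 ± 0.20 (edgeR adjusted p = 0.0018), with 1.37 within JD (called), 0.45 within PZ47-PZ48 and 0.86 within PZ58 libraries (not called), and 0.53 among cells with none of the other 4 factors (adjusted p = 0.42). Dkk2 ran from 0 to 328 CPM with a median of 26.5 CPM in cells with Foxn4, and from 3.06 to 290 CPM with a median of 56.5 CPM in cells without it, and was lower in 29 of 35 libraries. Its log2 change of -0.95 ± 0.30 (edgeR adjusted p = 0.042) was close to the threshold and was called in 5 of 17 alternatives. Over these alternatives it ran from -2.70 to -0.28. It was not called without replicate 8 (-0.92, adjusted p = 0.065) or with another scaling (-0.93, adjusted p = 0.052), and stood at -0.66 within JD, -0.63 within PZ47-PZ48 and -2.69 within PZ58 libraries, none of them called.

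Sost ran from 0 to 503.5 CPM in cells with Foxn4 and from 0 to 149 CPM in cells without it, with medians of 0 in both. It was higher in 14 libraries and lower in 6, and 20 libraries stood at 0 in cells with Foxn4 against 28 in cells without. Its log2 change of 3.02 ± 0.63 (edgeR adjusted p = 0.0016) was 2.00 without the richest cell (adjusted p = 0.053) and 2.40 without its library, replicate 20 (adjusted p = 0.016). It was 4.13 without clusters 14, 17, 19 and 23 (adjusted p = 1.9e-06), and DESeq2 gave 1.33 (adjusted p = 0.84). It was 2.45 within JD (adjusted p = 0.2), 4.54 within PZ47-PZ48 (adjusted p = 8.8e-05) and 1.5 within PZ58 libraries (adjusted p = 0.95). Among cells with none of the other 4 factors Sfrp1 was the 1 member called, and the 190 cells with Foxn4 alone held 3 counts of Sost. The members that did not pass were Sfrp2 (-0.58 ± 0.42), Sfrp4 (-0.02 ± 0.48), Frzb (-0.33 ± 0.51) and Wif1 (0.99 ± 0.59), and Dkk1 had 4 counts in cells with Foxn4 and 9 in cells without. Gm26771 stood at -0.28 ± 0.45, not called. In the high and low read class Sfrp1 changed by 1.43 and 1.09, both called, while Dkk3 stood at 1.25 and 0.79 and Sost at 1.62 and 3.81, called in the low class, and Dkk2 at -2.70 and -0.49, called in the high class.

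Clusters 15 and 18, the highest in Sfrp1, held 84 and 38 cells with Foxn4, against 5 and 4 matched cells without it, and cluster 13 held 50 and 6. Within cluster 15 the order turned round: Sfrp1 stood at 574 CPM in the 84 cells with Foxn4 and at 893 CPM in the 110 without. These groups were not matched, and a single cell without Foxn4 held 255 of the cluster's 2015 counts of Sfrp1. Within cluster 13 Sost stood at 482 CPM in cells with Foxn4, or 158 CPM without the cell of 272 counts, and at 107 CPM in cells without. The 8 epithelial markers summed to a median of 773 CPM per library in cells with Foxn4 (range 61.8 to 5543) and 75.0 CPM in cells without it (range 0 to 789), with 2 of 3 tested called higher, and 6 of 12 fibroblast markers were called lower. Their part in the members' changes was not tested.

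Among the pathway genes, 3 of 11 tested ligands were higher with Foxn4 and none lower: Wnt4 (log2 change 2.55), Wnt5a (0.46) and Wnt10a (1.55). DESeq2 called 2 of these and gave no adjusted p for the third. Wnt4 averaged 30.3 ± 38.2 CPM in cells with Foxn4 and 3.46 ± 5.46 CPM in cells without (SD, n = 35). Lrp5 (0.69) and Fzd6 (0.79) were the 2 of 21 receptors called, both higher. Of 12 tested target genes 3 were higher and 2 lower, with Tnfrsf19 (2.94) and Lef1 (1.94) among those that rose and Myc (-0.82) and Ccn4 (-0.40) the ones that fell. The BMP antagonists Fst (-1.10), Fstl1 (-0.45) and Grem1 (-0.80) were lower, 3 of 11 tested. No gene was called among 5 agonists, 3 other inhibitors and 16 core genes, where edgeR gave an unadjusted p under 0.05 for 2, 2 and 1. DESeq2 called 0, 0 and 1 in these lists, and gave no adjusted p for 1 agonist and 1 inhibitor.

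Gata6, a zinc-finger factor of heart, epicardium and endoderm, was the most widely detected of the 5 factors, in 2001 cells of 36 libraries. Cells with Gata6 had higher Sfrp1 and Sfrp2 and lower Dkk2 than matched cells without it. Of the 9 members tested, 2 were called higher and 1 lower, where 6.37% of 16286 genes were called (4.17% higher, 2.2% lower), and the members' median log2 change was 0.04, against 0.008 over all genes tested.

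Sfrp1 ran from 97.8 to 615 CPM with a median of 225 CPM in cells with Gata6, and from 33.4 to 301.4 CPM with a median of 141 CPM in cells without it. It was higher in 32 of 36 libraries, although the ranges overlapped. The mean was 260 ± 126 CPM among cells with Gata6 and 147 ± 57.0 CPM among cells without it (SD, n = 36), a log2 change of 0.75 ± 0.10 (edgeR adjusted p = 4.1e-07). The change was 0.48 within JD (adjusted p = 0.092), 0.96 within PZ47-PZ48 (adjusted p = 0.0003) and 0.87 within PZ58 libraries (adjusted p = 0.0096), and 0.72 among cells with none of the other 4 factors (adjusted p = 1.9e-05).

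Sfrp2 ran from 0 to 1033 CPM with a median of 15.9 CPM in cells with Gata6, and from 0 to 53.3 CPM with a median of 8.81 CPM in cells without it, higher in 25 libraries and lower in 11. Its log2 change of 1.08 ± 0.33 (edgeR adjusted p = 0.041) was not called without replicate 11 (0.84, adjusted p = 0.092), without its single richest cell (0.89, adjusted p = 0.065), without clusters 14, 17, 19 and 23 (0.74, adjusted p = 0.25) or with DESeq2 (0.94, adjusted p = 0.086). It was 1.76 within JD, 0.51 within PZ47-PZ48 and 0.97 within PZ58 libraries, none of them called, and 2.00 without the library as a block (adjusted p = 0.0019). Among cells with none of the other 4 factors it was 1.69 (adjusted p = 0.00036). Gm26771 changed by 1.15 ± 0.35 (edgeR adjusted p = 0.037).

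Dkk2 ran from 17.6 to 145 CPM with a median of 52.5 CPM in cells with Gata6, and from 8.44 to 214.5 CPM with a median of 66.9 CPM in cells without it, lower in 24 libraries and higher in 12. Its log2 change was -0.57 ± 0.14 (edgeR adjusted p = 0.006), with -0.90 within JD (called), -0.35 within PZ47-PZ48 and -0.28 within PZ58 libraries (not called). It was not called without the deepest 5% of cells (-0.31, adjusted p = 0.29), with pairs within 10% of each other in depth (-0.29, adjusted p = 0.28) or among cells with none of the other 4 factors (-0.63, adjusted p = 0.06). The members that did not pass were Sost (1.26 ± 0.51), Dkk1 (-0.02 ± 0.37), Dkk3 (0.04 ± 0.09), Sfrp4 (-0.72 ± 0.29), Frzb (0.36 ± 0.21) and Wif1 (-0.82 ± 0.42). In the high and low read class Sfrp1 changed by 0.69 and 0.76, both called, while Sfrp2 stood at 0.53 and 1.29 and Dkk2 at -0.45 and -0.63, called in the low class.

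The mesothelium and epicardium-like cluster 14, highest in Sfrp2 and lowest in Dkk2, held 162 cells with Gata6 and 6 matched cells without it. Within that cluster Sfrp2 reached 217 CPM over the 162 cells with Gata6 (124 CPM without a cell of 190 counts) and 61.0 CPM over the 44 without (29.7 CPM without a cell of 11 counts). Within cluster 15 Sfrp1 reached 943 CPM over cells with Gata6 and 545 CPM over cells without. The cells with Gata6 there included the cell with 255 of the cluster's 2015 counts of Sfrp1. All 12 mesothelium and epicardium markers were called higher, with a summed median of 311 CPM among cells with Gata6 (range 49.0 to 665) and 43.7 CPM in cells without it (range 15.4 to 220), and Muc16 at 0 in cells without. Without clusters 14, 17, 19 and 23 the Sfrp1 change was 0.77 (adjusted p = 6e-07), the Dkk2 change -0.50 (adjusted p = 0.021) and the Sfrp2 value 0.74, not called.

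Around the antagonists, Wnt2 (0.96) was the 1 of 13 tested ligands called with Gata6 and Ror1 (0.63) the 1 of 23 receptors, both higher. Of 6 agonist and release genes, Rspo1 (1.92) and the Wnt carrier Wls (0.17) were higher and Rspo2 (-0.67) lower. Rspo1, which is also on the mesothelial marker list, averaged 6.92 ± 6.84 CPM among cells with Gata6 and 1.46 ± 1.84 CPM among cells without (SD, n = 36). Target genes Ccn4 (0.30), Bmp4 (0.35) and Nkd1 (0.44) were higher, 3 of 15, and of 11 BMP antagonists 3 were higher, Bmper (0.84), Nbl1 (0.19) and Fstl1 (0.12), and 1 was lower. DESeq2 called 3 ligands and 2 receptors. No gene was called among 6 other inhibitors and 16 core genes, where edgeR gave an unadjusted p under 0.05 for 1 gene each. DESeq2 also called 0 in these lists, but gave no adjusted p for 3 of the 6 inhibitors.

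Hand2, of the same helix-loop-helix family as Mesp1 and known from heart and limb buds, was detected in 910 cells of 36 libraries. Cells with Hand2 had higher Dkk2 and Dkk3 and lower Sost than matched cells without it. Of the 8 members tested, 2 were called higher and 1 lower, where 4.5% of 15039 genes were called (3.01% higher, 1.49% lower), and the members' median log2 change was 0.04, against -0.0027 over all genes tested.

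Dkk2, lower with Mesp1, Foxn4 and Gata6, was higher with Hand2. It ran from 0 to 243 CPM with a median of 77.5 CPM in cells with Hand2, and from 0 to 163 CPM with a median of 54.6 CPM in cells without it, higher in 27 of 36 libraries with ranges that overlapped. Means were 97.1 ± 64.0 CPM in cells with Hand2 and 55.8 ± 35.4 CPM in cells without it (SD, n = 36), a log2 change of 0.78 ± 0.21 (edgeR adjusted p = 0.015). The change was 0.89 within JD, 0.53 within PZ47-PZ48 and 1.01 within PZ58 libraries, none of them called, and DESeq2 gave 0.70 (adjusted p = 0.062). Among cells with none of the other 4 factors it was 1.27 (adjusted p = 0.012).

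Dkk3 ran from 0 to 418 CPM with a median of 166 CPM in cells with Hand2, and from 0 to 326 CPM with a median of 96.0 CPM in cells without it, higher in 25 libraries and lower in 11. Its log2 change was 0.61 ± 0.14 (edgeR adjusted p = 0.0033), with 0.60 within JD, 0.62 within PZ47-PZ48 and 0.61 within PZ58 libraries, none of them called within a series, and 0.18 among cells with none of the other 4 factors (adjusted p = 0.91). Sost ran from 0 to 53.5 CPM in cells with Hand2 and from 0 to 310 CPM in cells without it, with medians of 0 in both, lower in 15 libraries and higher in 6. Its log2 change was -2.38 ± 0.61 (edgeR adjusted p = 0.016). The cell with 272 counts stood among the cells without Hand2, and the change was not called without that cell (-1.41, adjusted p = 0.29), without its library (-2.01, adjusted p = 0.075) or with DESeq2 (-1.09, adjusted p = 0.78). It was -2.51 within JD and -2.34 within PZ47-PZ48 libraries, not called, and had too few counts within PZ58 libraries. Among cells with none of the other 4 factors Dkk2 was the 1 member called, so Sost was not called there.

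The members that did not pass were Sfrp1 (0.16 ± 0.11), Sfrp2 (-0.31 ± 0.43), Sfrp4 (-0.73 ± 0.30), Frzb (-0.08 ± 0.29) and Wif1 (0.55 ± 0.55), and Dkk1 had 9 counts in cells with Hand2 and 4 in cells without. Sfrp2 was not steady in sign. Its median was 16.5 CPM in cells with Hand2 and 7.08 CPM in cells without, and the fold change turned to 0.03 without the richest cell. Gm26771 stood at -0.42 ± 0.47, not called. In the high and low read class Dkk3 stood at 0.63 and 0.61, called in the low class, while Dkk2 at 1.19 and 0.63 and Sost at -2.93 and -2.22 were called in neither.

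Cluster 11, highest in Dkk3, held 18.8% of cells with Hand2 and 1.43% of matched cells without it, the mesothelium and epicardium-like cluster 14 held 105 cells with Hand2 and 15 matched cells, and cluster 13 held 16 and 32. Clusters 2 and 9, highest in Dkk2, held 93 and 42 cells with Hand2, against 97 and 46 matched cells. Within cluster 2 Dkk2 stood at 328 CPM in cells with Hand2 and at 196 CPM in cells without, and within cluster 11 Dkk3 stood at 366 CPM and 293 CPM. None of the 16 cells with Hand2 in cluster 13 had a count of Sost, which allows a share of up to 18.8%, and 12.5% of the other 200 cells had one. Skeletal muscle markers were called lower in 10 of 17 cases, with a summed median of 335 CPM in cells with Hand2 (range 79.7 to 1868) and 737 CPM in cells without it (range 103 to 6047), and 9 of 12 mesothelium and epicardium markers were called higher (median 347 CPM, range 50.3 to 930, with Hand2 and 63.7 CPM, range 3.84 to 428, without). Without clusters 14, 17, 19 and 23, which hold the skeletal muscle-like and the mesothelium and epicardium-like cells, the changes were 0.96 for Dkk2, 0.66 for Dkk3 and -3.01 for Sost, all called.

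Among the pathway genes, Wnt11 (0.98), a ligand of the beta-catenin-independent branch known in heart development, was the 1 of 10 tested ligands called with Hand2, and averaged 13.8 ± 10.1 CPM in cells with Hand2 and 6.72 ± 5.45 CPM in cells without (SD, n = 36). Fzd6 (0.49) and Ryk (0.19) were higher among 20 receptors, and Rspo2 (-1.01) lower among 6 agonists, of which DESeq2 called 2. Sostdc1 (2.08), the gene most related to Sost, was the 1 of 5 other inhibitors called, on 44 counts in cells with Hand2 and 4 in cells without, and DESeq2 gave it no adjusted p. Ctnnb1 (0.20), which encodes beta-catenin, was the 1 of 16 core genes called. Of 14 targets Ccn4 (0.36) was higher and Tnfrsf19 (-1.01) lower (DESeq2 called 1 of them), and of 11 BMP antagonists Nbl1 (0.41) was higher and Grem1 (-0.71) and Fst (-0.44) lower.

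Myod1, the master regulator of skeletal muscle and also a helix-loop-helix protein, was detected in 350 cells of 34 libraries with at least 3 such cells. Cells with Myod1 had higher Sost and Wif1 and lower Frzb than matched cells without it. Of the 8 members tested, 2 were called higher and 1 lower, where 14.4% of 13807 genes were called (9.13% higher, 5.23% lower), and the members' median log2 change was -0.51, against -0.0052 over all genes tested.

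Sost ran from 0 to 522 CPM with a median of 7.49 CPM in cells with Myod1, and from 0 to 17.9 CPM with a median of 0 in cells without it. It stood at 0 in 15 of 34 libraries in cells with Myod1 and in 31 in cells without, higher in 19 libraries and lower in 2. Means were 28.8 ± 88.9 CPM in cells with Myod1 and 0.913 ± 3.58 CPM in cells without it (SD, n = 34), a log2 change of 4.38 ± 0.42 (edgeR adjusted p = 1.3e-10). A count was found in 7.71% of cells with Myod1 and 0.857% of cells without. After thinning to 5000 counts it was found in 5.36% of 317 cells with Myod1 and 0 of 317 cells without. By the rule of 3 cells, 0 of 317 allows a share of up to 0.946%. Without the richest cell the change was 2.99 (adjusted p = 3.4e-06), and without its library, replicate 20, it was 3.69. It was 4.00 within JD (adjusted p = 0.00019) and 4.81 within PZ47-PZ48 libraries (adjusted p = 4.5e-06), and had too few counts within PZ58 libraries and in the high read class. It was called in 14 of 15 alternatives, the exception being DESeq2 (2.43, adjusted p = 0.49).

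Wif1 ran from 0 to 35.4 CPM with a median of 4.30 CPM in cells with Myod1, and from 0 to 7.25 CPM with a median of 0 in cells without it. It stood at 0 in 12 libraries in cells with Myod1 and in 29 in cells without, higher in 21 libraries and lower in 3. On 55 counts in cells with Myod1 and 5 in cells without, its log2 change was 2.61 ± 0.46 (edgeR adjusted p = 3.4e-05). It was 2.65 within JD (adjusted p = 0.016) and 2.36 within PZ47-PZ48 libraries (adjusted p = 0.093), and 2.92 among cells with none of the other 4 factors (adjusted p = 0.0019).

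Frzb ran from 0 to 17.2 CPM with a median of 0 in cells with Myod1, and from 0 to 86.4 CPM with a median of 5.94 CPM in cells without it, lower in 20 libraries and higher in 6. Its log2 change of -1.38 ± 0.48 (edgeR adjusted p = 0.043), on 25 and 65 counts, was called in 6 of 15 alternatives. It was -1.32 within JD and -1.23 within PZ47-PZ48 libraries, not called, and -1.15 without the richest cell (adjusted p = 0.1). The members that did not pass were Dkk2 (-0.58 ± 0.30), Dkk3 (-0.10 ± 0.20), Sfrp1 (-0.43 ± 0.23), Sfrp2 (-0.67 ± 0.51) and Sfrp4 (-0.74 ± 0.56). Dkk1 had 1 count in cells with Myod1 and 2 in cells without, and Gm26771 stood at -0.67 ± 0.51, not called. In the low read class Sost stood at 4.54 and Wif1 at 2.46, both called, and Frzb at -1.15, not called, and in the high class these 3 genes had too few counts.

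The skeletal muscle-like cluster 17 held 97 cells with Myod1 and 2 matched cells without it, and cluster 13 held 44 and 5. Within cluster 17 Wif1 stood at 26.7 CPM in the 98 cells with Myod1 and at 20.6 CPM in the 49 without. Sost stood there at 26.1 CPM with Myod1 and at 94.9 CPM without, where 3 cells held its 46 counts and 1 of them 29, and it was found in 15.3% of cells with Myod1 and 6.12% of cells without. Within cluster 13 Sost stood at 338 CPM in cells with Myod1 and at 161 CPM in cells without, but the cell of 272 counts carried Myod1, and without it the level with Myod1 was 17.5 CPM, below that of cells without. A count was found in 9.09% of cells with Myod1 and 12.2% of cells without in that cluster. All 17 skeletal muscle markers were called higher, with a summed median of 9036 CPM in cells with Myod1 (range 536 to 27113) and 197 CPM in cells without it (range 46.3 to 2215). Without clusters 14, 17, 19 and 23 the Sost change was 4.12 (adjusted p = 4.6e-06), while Wif1 had too few counts to be tested and Frzb stood at -1.07 (adjusted p = 0.42).

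Of the receptors and coreceptors, 4 of 21 tested were higher with Myod1 and 2 lower, and of these 6 DESeq2 called 2 and gave no adjusted p for 3. Lrp4 (2.27), a receptor of the neuromuscular junction that also binds sclerostin, averaged 15.5 ± 14.0 CPM in cells with Myod1 and 2.25 ± 3.95 CPM in cells without (SD, n = 34). Kremen2, which with its relative Kremen1 (0.58) binds Dickkopf proteins, had 65 counts in cells with Myod1 and 0 in cells without (3.90 ± 0.56, SE). Fzd9 had 41 and 0 (3.31 ± 0.57). Against a floor of 3 counts over the group the pooled ratios were 21.5 and 13.5, which leave out the spread between libraries. Porcn (1.04) was higher among 5 agonists, Csnk1a1 (0.27) among 16 core genes, of which DESeq2 called 2, and Nkd1 (1.41) among 12 targets, where Ccnd1 (-0.69), a cyclin of the cell cycle, was lower. Of 11 BMP antagonists Nog (1.59) was higher and Fstl1 (-0.53) and Grem1 (-1.28) were lower. No gene was called among 11 ligands and 3 other inhibitors, where edgeR gave an unadjusted p under 0.05 for 2 and 0 genes. DESeq2 also called 0, but gave no adjusted p for 6 of these ligands and 1 of these inhibitors.

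**Figure D3:**
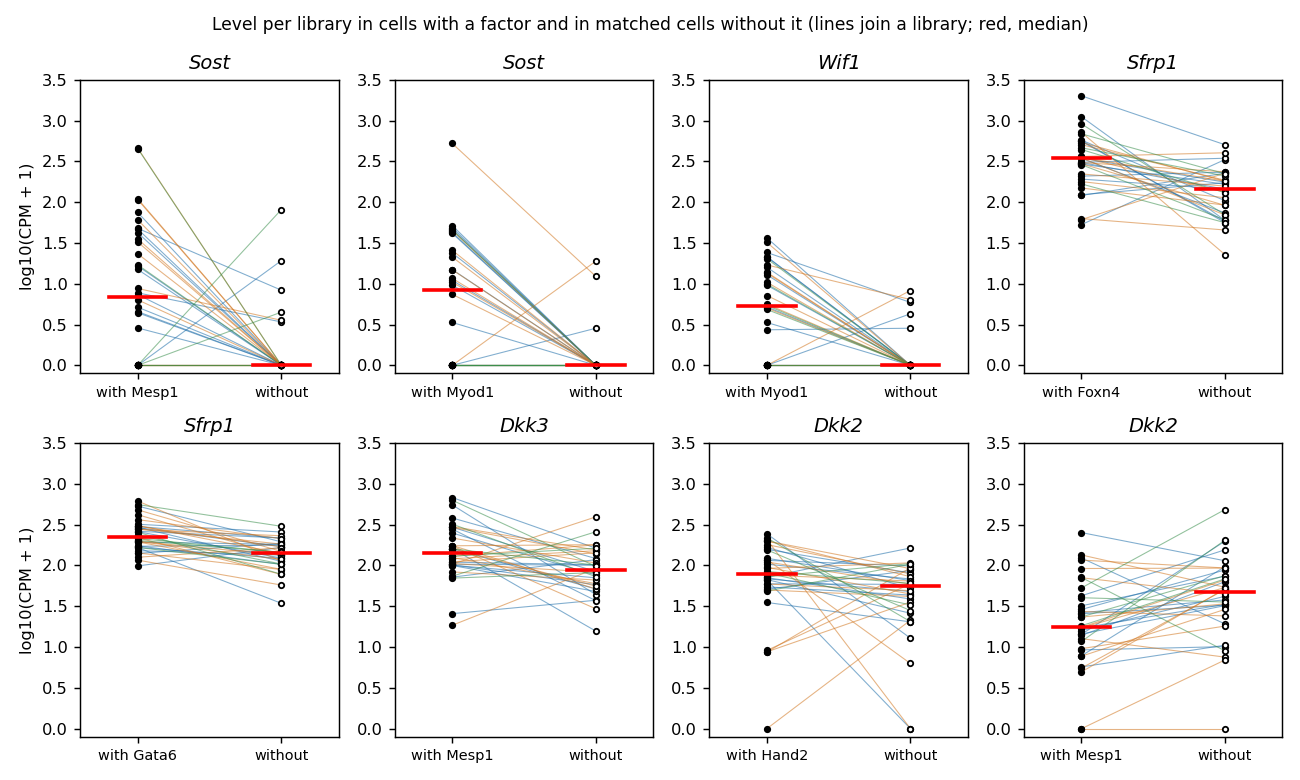
Level in cells with a factor (left of each panel) and in matched cells without it (right) for 8 pairs of member and factor, as log10(CPM + 1), with 1 line per library coloured by series (blue JD, orange PZ47-PZ48, green PZ58) and medians in red. For Sost with Myod1 the line slopes down from left to right in 19 of 34 libraries and for Sfrp1 with Gata6 in 32 of 36, while for Dkk2 it does so in 27 of 36 libraries with Hand2 and in 9 of 36 with Mesp1.

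Combinations of factors separated some of these values, over all cells and pooled over libraries, as descriptions without a test. A factor alone means none of the other 4, but cells with both factors of a pair could also carry the others. The pairs therefore share cells. The cell with 272 counts of Sost carried Mesp1, Foxn4, Gata6 and Myod1, and is the richest cell of both Sost pairs given here. Sost stood at 20.9 CPM in the 198 cells with Mesp1 and none of the other 4 factors, at 13.2 CPM in the 149 with Myod1 alone, and between 0.625 and 2.77 CPM with Hand2, Foxn4 or Gata6 alone, against 0.808 CPM in cells with none. Without the richest cell of each group the levels were 10.3 CPM with Mesp1 alone, 9.17 CPM with Myod1 alone, 1.23 CPM with Gata6 alone, 0.469 CPM with Hand2 alone and 0.312 CPM with Foxn4 alone, against 0.660 CPM with none. It was at 153 CPM in cells with both Mesp1 and Foxn4 and at 137 CPM with both Mesp1 and Myod1, or 59.4 and 16.7 CPM without the richest cell. Of the 104 cells with a count of Sost, 41.3% had one of Mesp1, 26.9% of Myod1, 20.2% of Foxn4, 41.3% of Gata6 and 12.5% of Hand2, against 5.87%, 4.11%, 5.29%, 23.4% and 10.6% of all cells. The Sost-positive cells were deeper than most, with a median of 15842 counts.

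Sfrp1 stood at 356 CPM with Foxn4 alone, 243 CPM with Gata6 alone and 438 CPM with both, against 169.3 CPM in cells with none of the 5 factors. Here and below, cells with both could also carry other factors. Dkk2 stood at 163 CPM with Hand2 alone, against 75.2 CPM with none, and Wif1 at 12.4 CPM with Myod1 alone, against 1.07 CPM with none. Sfrp2 stood at 4.54 CPM with Mesp1 alone and 49.0 CPM with Gata6 alone (27.5 CPM without its richest cell), against 13.0 CPM with none. Dkk3 was at 294 CPM in cells with both Foxn4 and Hand2 and at 279 CPM with both Mesp1 and Foxn4, against 110 CPM with none.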

How the data were processed

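Drop-seq libraries (37) were deposited as tables of raw counts per gene and cell barcode. Build mm10 and the tools featureCounts 1.5.3, UMI-tools, STAR 2.5.3a and bcl2fastq 2.17.1.14 are named in the submitters' processing notes; the annotation, the strand setting and the cell filter are not given in the sources used here. No column of another series was present (0). Identifiers were matched to symbols for 27645 of 27998 rows.

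Replicates 4 and 6 were merged, copied barcodes were removed, and cells with at least 1 count of a factor were matched 1 to 1 on total counts within each library holding 3 or more of them. Sums per library and group were fitted with edgeR 4.0.16 in R 4.3.3 (quasi-likelihood test, TMM scaling, genes with 20 or more counts, Benjamini-Hochberg threshold 0.05). The library was a block because both groups come from the same library, which pairs them by design. CPM values are counts scaled to a common total over a group's counts in a library. Cells were clustered with leidenalg 0.10.2 and scikit-learn 1.9.0 (2000 variable genes, 30 components, resolution 1.2). A cluster was named from marker lists. No doublet caller was run, so doublets may remain. The edgeR fits of Mesp1 and Gata6 were tested on simulated data.

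All members except Sfrp5 are reported in each comparison. Sfrp5 had 3 counts in all cells and could not be tested with any factor. Up to 4 genes per pathway list and comparison were named, smallest adjusted p first, and the 3 genes most correlated with each member detected in 100 or more cells; some genes picked by these rules are not reported here. The members, lists and tests were chosen with earlier results of these data known, and the Sost and Sfrp2 differences with Mesp1 were among those results, so they are not independent support. Alternatives were another scaling, DESeq2 1.42.0, no filter on low counts, other cell sets, each library series, no block, and, chosen after seeing the data, each read class and leaving out the cell with the most counts.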

Additional observations from a re-analysis of the deposited data

How the results depend on the processing

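With the 4 members called for Mesp1 as the base, 0 were called among cells with none of the other 4 factors, 1 in PZ47-PZ48, 0 in PZ58 and 0 in high read class libraries. For Foxn4 (4 called), 2 were called with 2 or more counts of the factor, 1 with none of the other 4 factors, 1 in JD, 2 in PZ47-PZ48, 1 in PZ58 and 2 in high read class libraries. For Gata6 (3), 5 were called with no filter on low counts, 1 in JD, 1 in PZ58 and 1 in high read class libraries. For Hand2 (3), DESeq2 called 1, cells with none of the other 4 factors 1, each of JD, PZ47-PZ48 and PZ58 libraries 0, and each read class 1. The 1 called in the high class was Sfrp2, so 0 of the 3 base members were called there. For Myod1 (3), DESeq2 called 0, no filter on low counts 6, all cells without the factor 6, leaving out clusters 14, 17, 19 and 23 1, PZ58 0 and the high read class 0. Where edgeR called 0, an unadjusted p under 0.05 was found for 4 members (Mesp1, no other factor), 3 (Mesp1, PZ58), 4 (Mesp1, high class), 4, 3 and 3 (Hand2, JD, PZ47-PZ48 and PZ58), 1 (Myod1, PZ58) and 0 (Myod1, high class). DESeq2, which called 0 for Myod1, had 3 and gave Wif1 no adjusted p. Sfrp2 with Hand2 was -0.31 and turned to 2.25 in high read class libraries (adjusted p = 0.0017); the cause was not tested.

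Without the replicate block, Dkk2 was not called for Mesp1 (-0.82, adjusted p = 0.086) or Foxn4 (-0.88, adjusted p = 0.062), and Sfrp2 was called lower for Hand2 (-2.0, adjusted p = 0.015) and Myod1 (-2.60, adjusted p = 0.0013). The block changed no other member's call. Over all genes, calls for Mesp1, Foxn4, Gata6, Hand2 and Myod1 were 1160, 1009, 1038, 677 and 1982. They were 3382, 3322, 2774, 2367 and 4646 against all cells without the factor, and 102, 103, 486, 76 and 1261 among cells with none of the other 4 factors. Within JD they were 201, 266, 234, 147 and 894, within PZ47-PZ48 they were 420, 286, 220, 181 and 686, and within PZ58 they were 12, 24, 36, 46 and 200. They were 93, 78, 135, 137 and 370 within high read class libraries. Low read class libraries gave 601 for Gata6 and 361 for Hand2, 2 or more counts of Foxn4 gave 301, no replicate block gave 645 for Gata6, and leaving out clusters 14, 17, 19 and 23 gave 284 for Myod1. Fewer cells and libraries enter each split, which limits what it can call.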
